A study of Mus musculus with 12 samples.

Results

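The genes described here are 10 members of the fibroblast growth factor (FGF) signalling family out of 55487 genes in the count table: the ligands Fgf1, Fgf2, Fgf7, Fgf10 and Fgf21, the receptors Fgfr1, Fgfr2, Fgfr3 and Fgfr4, and Klb, which encodes beta-Klotho. They were chosen by name, and all 10 had a row in the table. RNA sequencing was done on 12 mouse libraries in 4 groups of 3. The recipient cells were the hepatoma line Hepa1, wild type by its label, and embryonic fibroblasts (MEFs) in primary culture, with Bach1 knockout as the labelled genotype. Each was kept for 4 days in medium that immortalised MEFs had conditioned for 48 h, with 10% fetal bovine serum, 0.1 mM 2-mercaptoethanol and 0.4 mg/mL vitamin E present in all 4 groups. The conditioning cells were either control cells or cells made to re-express Bach1, labelled ferroptotic, and their media are called control and ferroptotic medium here. The series title names FGF21 secreted by ferroptotic cells, and the question taken up is which recipient cells carry the parts needed to receive it. Cell type, Bach1 genotype and line against primary culture differ together between Hepa1 and MEFs and cannot be told apart.

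FGF ligands act on 4 receptor tyrosine kinases. FGF1 binds all of them, FGF2 several of them, and both are held near their source by heparan sulfate. FGF7 and FGF10 are made by mesenchymal cells and act on the IIIb splice form of FGFR2, which epithelial cells make. FGF21 is a hormone of liver and other tissues that binds heparan sulfate weakly and needs beta-Klotho beside a receptor, chiefly the IIIc form of FGFR1, to signal. Counts per gene do not show which splice form of a receptor was made.

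The libraries held 18.58 M to 23.4 M reads on genes. A value at or under 3 reads in a library, 0.128 to 0.161 CPM (counts scaled to a common total of reads on genes), was read as near the limit of detection. Bach1 (ENSMUSG00000025612), a repressor of heme and iron genes, was read at 116 to 147 CPM in the 6 Hepa1 libraries and at 72.1 to 82.1 CPM in the 6 MEF libraries labelled knockout. A count per gene does not show which exons were read, so it does not check that label. Of 12 fibroblast markers, 12 were above 3 reads in every MEF library, with a summed level of 40900 to 49416 CPM. In Hepa1 6 of them were above 3 reads in every control library and 7 in every ferroptotic library, with sums of 1814 to 2133 and 2746 to 2818 CPM, and Dcn was higher there than in MEFs (289 against 3.66 CPM in control medium). Of 14 hepatocyte markers, 6 were above 3 reads in every Hepa1 control library and 5 in every Hepa1 ferroptotic library, with sums of 503 to 519 and 1669 to 1820 CPM. Of them, Apoa1, Ttr and Serpina1a were at 0 reads in all 6, so that Hepa1 lacked several defining hepatocyte transcripts. Hepa1 replicate 3 in ferroptotic medium held more reads of MEF-abundant genes than the other Hepa1 libraries. Over 36 genes at 500 CPM or more in MEFs and under 0.2 CPM in Hepa1 control medium, members left out, it held 0.116% of the MEF level, against 0.00915% and 0.0153% in replicates 1 and 2 of its group and 0.00426 to 0.00827% in the Hepa1 control libraries. The 36 genes were picked as low in Hepa1 control medium, so the control libraries had to be low. The comparison therefore rests on replicates 1 and 2 of the ferroptotic group. The source of the reads in replicate 3 was not tested, and results that rest on that library are given with and without it. Whether replicates were separate cultures is not said in the labels, and the p-values reflect the spread among these libraries only, which may be technical. In bulk RNA, fewer cells of a type and less RNA per cell cannot be told apart.

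Beta-Klotho transcript was close to absent in both recipient cells, while Fgfr1 and Fgfr2 were abundant in MEFs alone of the 2 cell types. Klb (ENSMUSG00000029195, GRCm38 chromosome 5, 65348314 to 65384007) had 0 reads in each of the 6 MEF libraries and 3 reads in the 6 Hepa1 libraries. In Hepa1 control medium these were 0, 1 and 0 reads, and in ferroptotic medium 2, 0 and 0 reads. Of 131.756 M reads in MEFs, a count of 0 allows a level of up to 0.0228 CPM. The limit covers counting error only, and expression below it was not detectable at this depth. Kl, named after its values were seen, encodes alpha-Klotho, the co-receptor of FGF23, and had 4 reads in all 12 libraries. Klb did not pass the filter on low counts and was not tested between groups, and the groups overlap. Its ratio of reads in Hepa1, ferroptotic over control medium, was 2.01 with an interval of 0.105 to 119.

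The 250 bases before the RefSeq start (GRCm38.p6) are shown for 2 genes of which the libraries held few reads or none, Fgf21 and Klb, and for Fgf7, the ligand with the highest level per kilobase in MEFs. For Klb only the 153 bases before the annotated gene are given. RefSeq windows were matched for 8 of the 10 members, and Fgf1 and Fgfr1 were not matched. Capitals mark TTGCATCA, the reverse complement of the amino acid response element core TGATGCAA bound by ATF4, then the E-box CACGTG and the TATA box TATAAA. The windows are Fgf21 at chr7:45615491-45615740 on the minus strand, Klb at chr5:65348161-65348313 on the plus strand and Fgf7 at chr2:126034408-126034657 on the plus strand.
Fgf21: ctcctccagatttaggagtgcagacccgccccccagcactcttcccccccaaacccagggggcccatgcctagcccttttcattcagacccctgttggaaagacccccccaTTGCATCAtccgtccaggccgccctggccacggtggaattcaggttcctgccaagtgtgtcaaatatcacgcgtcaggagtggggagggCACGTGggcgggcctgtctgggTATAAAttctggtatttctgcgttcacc
Klb: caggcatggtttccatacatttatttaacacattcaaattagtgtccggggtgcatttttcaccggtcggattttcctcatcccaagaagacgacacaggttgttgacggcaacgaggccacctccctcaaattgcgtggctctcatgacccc
Fgf7: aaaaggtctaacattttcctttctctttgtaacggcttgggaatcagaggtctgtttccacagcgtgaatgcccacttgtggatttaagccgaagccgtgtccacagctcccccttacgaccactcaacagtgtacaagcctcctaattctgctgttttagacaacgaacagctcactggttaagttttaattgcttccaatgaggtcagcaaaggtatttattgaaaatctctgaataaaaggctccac
In Fgf21 the element core lies 139 to 132 bases before the start, the E-box 50 to 45 and the TATA box 28 to 23. Searched on both strands over 250 bases, TGATGCAA is held by 0.791% of 32851 RefSeq promoters, CACGTG by 6.02% and TATAAA by 12.4%. None of the other matched windows, Klb and Fgf7 included, holds any of these letters. The antioxidant response element core TGACNNNGC, of the kind that BACH1 and NRF2 bind, is held by 10.2% of the promoters. It is in the windows of Fgf2, Fgfr3 and Klb, for Klb 67 to 59 bases before the RefSeq start and outside the stretch printed, and it is not in that of Fgf21. These are matches of letters only, and the marked motifs do not overlap each other. Atf4, whose product binds such elements in stress and which is named here after its values were seen, was at 778 ± 21.1 CPM in Hepa1 control medium and 214 ± 13.8 CPM in MEF control medium (SD, n = 3).

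Fgfr1 was the leading receptor in MEFs and was near the detection limit in Hepa1. Fgfr1 (ENSMUSG00000031565, GRCm38 chromosome 8, 25513654 to 25575718) encodes the receptor most often paired with beta-Klotho in FGF21 signalling. It had 8950, 9514 and 8826 reads in MEF control medium and 9941, 9879 and 10777 in MEF ferroptotic medium. In Hepa1 it had 0, 1 and 0 reads in control medium and 0, 2 and 10 in ferroptotic medium. All MEF libraries lie above all Hepa1 libraries, and 10 of the 12 reads in Hepa1 ferroptotic medium came from replicate 3. At the share of the MEF level found over the 36 genes, that library would hold 10.3 Fgfr1 reads. In CPM, the MEF means were 421 ± 0.823 in control and 457 ± 4.62 in ferroptotic medium (SD, n = 3).

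Fgfr2 was read in both cell types, at a far higher level in MEFs. Fgfr2 (ENSMUSG00000030849, chromosome 7, 130162451 to 133123350) encodes the receptor of FGF7 and FGF10 in its IIIb form. It had 43, 49 and 30 reads in Hepa1 control medium, 40, 22 and 39 in Hepa1 ferroptotic medium, 4335, 4437 and 4180 in MEF control medium and 6248, 6196 and 6613 in MEF ferroptotic medium. The Hepa1 groups overlap and the MEF groups do not. Its summed reads, scaled by library totals, were 96.6-fold higher in MEFs than in Hepa1 in control medium (95% interval 80.9 to 116, counting error only) and 166-fold higher in ferroptotic medium (136 to 203). The intervals leave out the choice of scaling. With scaling beyond total counts, in the edgeR fit of all 12 libraries, Fgfr2 was 142-fold and 240-fold higher. It is the 1 receptor with more than 20 reads in every Hepa1 library. The annotated gene spans 2960900 bases, and 3.04% of its exon bases are shared with Ctbp2 on the same strand. A count per gene does not show which exons held the Hepa1 reads. In Hepa1 ferroptotic replicate 3, 5.70 of its 39 reads would be met at the share of the 36 MEF genes.

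Fgfr3 and Fgfr4 were the minor receptors. Fgfr3 (ENSMUSG00000054252, chromosome 5, 33721674 to 33737068), known as a brake on bone growth, had 66, 91 and 68 reads in MEF control medium and 157, 137 and 148 in MEF ferroptotic medium. In Hepa1 it had 1, 3 and 4 reads in control medium and 3 in each ferroptotic library. Of its exon bases, 13.9% are shared with a gene on the opposite strand, G630022F23Rik, and reads of the pair were not told apart. Fgfr4 (ENSMUSG00000005320, chromosome 13, 55152640 to 55168759) encodes the main FGF receptor of hepatocytes, where it serves bile acid control. It had 0, 0 and 1 reads in Hepa1 control medium and 1, 0 and 1 in Hepa1 ferroptotic medium. In MEFs it had 7, 7 and 6 reads in control and 4, 9 and 3 in ferroptotic medium, and these 2 groups overlap.

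**Figure D1:**
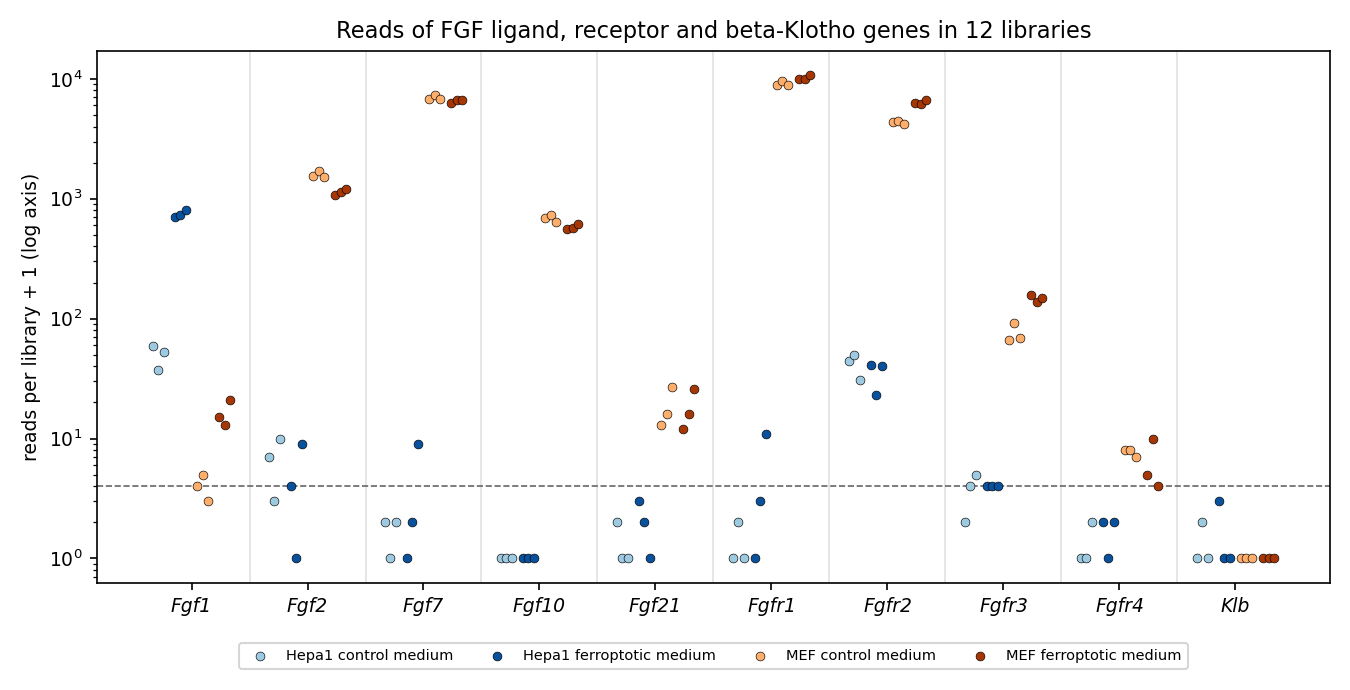
Reads per library plus 1 (log axis) for the 10 members, 1 point per library, 3 libraries in each of 4 groups. The dashed line marks 3 reads, drawn at 4 because of the added 1. Klb lies at or below it in all 12 libraries, while Fgf7 and Fgfr1 hold 6315 reads or more in every MEF library and stay at 10 or fewer in every Hepa1 library.

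Levels of different genes were compared only per kilobase of merged exons. In MEF control medium the receptors came in the order Fgfr1 at 42.6, Fgfr2 at 19.3, Fgfr3 at 0.483 and Fgfr4 at 0.0870 CPM per kilobase. Their sum was 62.5 CPM per kilobase in MEF control and 74.9 in MEF ferroptotic medium, against 0.225 and 0.217 in Hepa1. Fgfr1 made up 68.2% of the sum in MEF control medium and 61.8% in ferroptotic medium, and Fgfr2 30.9% and 36.8%. In Hepa1 the small sum was mostly Fgfr2, with 88.7% and 76.4%. Against the limit of 3 counts over the group, Fgfr1 was at least 4191-fold higher per kilobase than Klb in MEF control medium and at least 4698-fold higher in MEF ferroptotic medium. With the longest transcript as the length, Fgfr1 and Fgfr2 in MEF control medium were at 83.4 and 45.1 CPM per kilobase, in the same order.

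**Figure D2:**
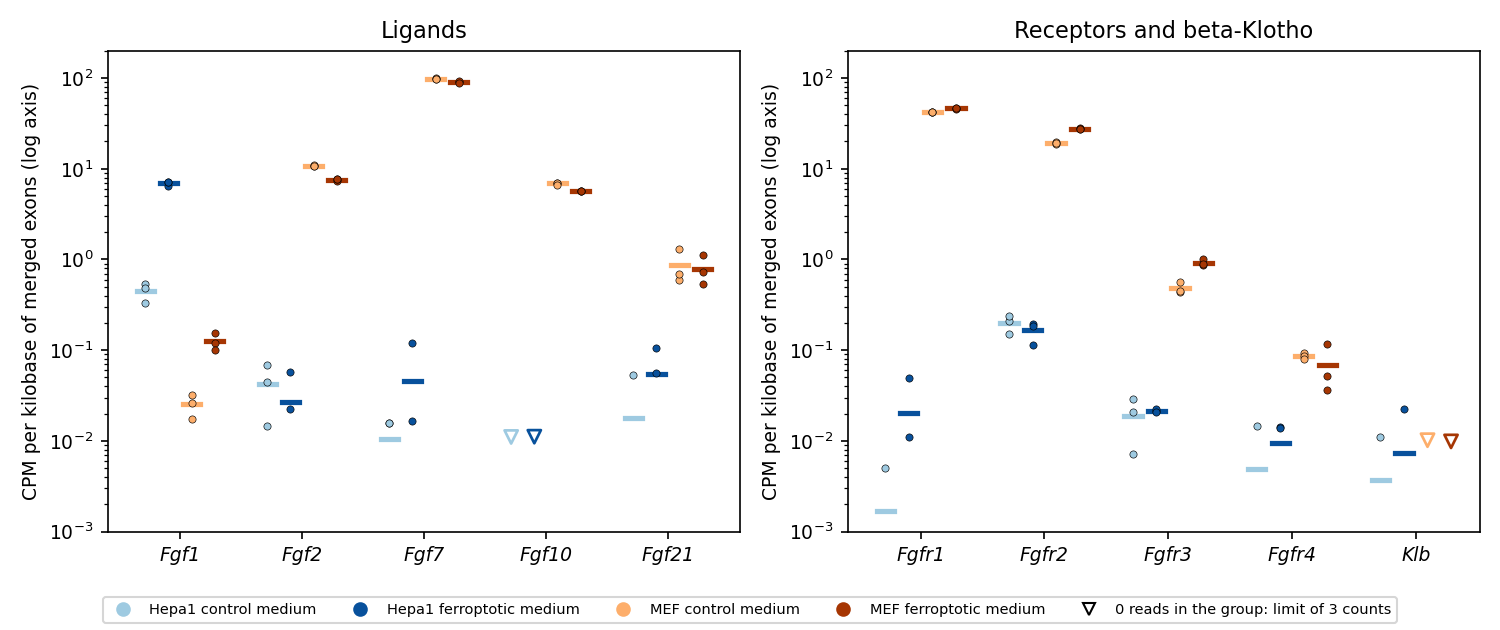
CPM per kilobase of merged exons (log axis) for ligands (left) and for receptors and beta-Klotho (right). Points are libraries, bars are group means of 3 libraries, libraries at 0 reads have no point, and open triangles mark the limit of 3 counts for groups with 0 reads. Fgf7 leads the ligands and Fgfr1 the receptors in MEFs, while Klb has only triangles there.

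Of the ligands, MEFs held Fgf7, Fgf2 and Fgf10, and Hepa1 held Fgf1. Per kilobase in MEF control medium, Fgf7 was at 98.8, Fgf2 at 10.8, Fgf10 at 6.89, Fgf21 at 0.864 and Fgf1 at 0.0252 CPM per kilobase. Fgf7 made up 84.2% of the ligand sum in MEF control and 86.5% in MEF ferroptotic medium. Fgf1 made up 86.5% of the much smaller sum in Hepa1 control medium (0.524 CPM per kilobase) and 98.2% in Hepa1 ferroptotic medium (7.09).

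Fgf7 (ENSMUSG00000027208, chromosome 2, 126034658 to 126091185), also called keratinocyte growth factor, had 6840, 7264 and 6727 reads in MEF control and 6315, 6627 and 6690 in MEF ferroptotic medium. In Hepa1 it had 1, 0 and 1 reads in control and 0, 1 and 8 in ferroptotic medium. Of the 9 reads in that last group, 8 came from replicate 3, where 7.23 would be met at the share of the 36 genes. Fgf10 (ENSMUSG00000021732, chromosome 13, 118669791 to 118792115), a mesenchymal ligand of limb and lung buds, had 689, 733 and 635 reads in MEF control and 562, 570 and 609 in MEF ferroptotic medium. It had 0 reads in all 6 Hepa1 libraries. Scaled by library totals it was at least 624-fold higher in MEFs in control medium and at least 509-fold higher in ferroptotic medium, against 3 counts over the Hepa1 group.

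Fgf2 (ENSMUSG00000037225, chromosome 3, 37348346 to 37410108), basic fibroblast growth factor, had 1547, 1696 and 1515 reads in MEF control and 1075, 1131 and 1215 in MEF ferroptotic medium. In Hepa1 it had 6, 2 and 9 reads in control and 3, 0 and 8 in ferroptotic medium, and those groups overlap. Of its exon bases, 13.2% are shared, with Nudt6 on the opposite strand and Gm43439 on the same strand. Fgf1 (ENSMUSG00000036585, chromosome 18, 38838673 to 38929472), acidic fibroblast growth factor, had 58, 36 and 52 reads in Hepa1 control and 700, 731 and 800 in Hepa1 ferroptotic medium. In MEFs it had 3, 4 and 2 reads in control and 14, 12 and 20 in ferroptotic medium. It is the 1 member whose highest group was in Hepa1 among the members above 3 reads in a whole group.

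Fgf21 (ENSMUSG00000030827, chromosome 7, 45613886 to 45615490) was a low transcript in both recipients. It had 12, 15 and 26 reads in MEF control and 11, 15 and 25 in MEF ferroptotic medium, which overlap almost fully. In Hepa1 it had 1, 0 and 0 reads in control and 2, 1 and 0 in ferroptotic medium, so a line of liver origin held no more than 2 reads per library of this liver hormone. Its mean was 0.822 ± 0.364 CPM in MEF control and 0.755 ± 0.286 CPM in MEF ferroptotic medium (SD, n = 3). The cells that conditioned the medium were not sequenced here, so their Fgf21 was not analysed here.

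Ranked by CPM, the 4 groups fell in separate ranges only for Fgf1, in the order Hepa1 ferroptotic, Hepa1 control, MEF ferroptotic and MEF control. For Fgf2, Fgf7, Fgf10, Fgfr1, Fgfr2 and Fgfr3 both MEF groups stood apart from each other and from Hepa1, while the 2 Hepa1 groups overlapped or were both at 0. For Fgf21 and Fgfr4 the MEF groups overlapped each other and stood above the Hepa1 groups, which also overlapped. Over all genes tested, ranges of the 2 media did not overlap for 60.7% in MEFs and 63.2% in Hepa1. Between the cell types the shares were 89.9% in control and 91.1% in ferroptotic medium, so standing apart is common. The share of all genes in 4 separate ranges was not counted. The change of Fgfr1 in MEFs was not called (adjusted p = 0.1, edgeR).

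Fgf1 rose in Hepa1 with ferroptotic medium, and the change of Fgfr2 was not called. Fgf1 went from 2.48 ± 0.598 to 38.0 ± 2.20 CPM (SD, n = 3). The log2 change was 3.89 (SE 0.105, adjusted p = 5.51e-22, edgeR's quasi-likelihood test with Benjamini-Hochberg adjustment over all genes). The ferroptotic libraries, at 700 reads or more, stand apart from the control libraries, at 58 or fewer, and groups did not overlap for 63.2% of all genes tested. Fgfr2 went from 2.06 ± 0.467 to 1.71 ± 0.458 CPM, with a log2 value of -0.31 (95% interval -0.75 to 0.13, adjusted p = 0.244). Only these 2 members passed the filter on low counts, so 1 of 2 was called, where 58.1% of 13169 genes were called in Hepa1 (29.3% higher, 28.8% lower). The other 8 members were too low to test. Fgfr1 was called with no filter on counts (log2 change 3.13, adjusted p = 0.0223), and with all 12 libraries in 1 fit (3.09, adjusted p = 0.0111), with 10 of its 12 ferroptotic reads from replicate 3. Without that library neither fit called it. Marker sums moved beside Fgf1. Of the hepatocyte markers 4 of 5 tested were called higher, with most of the sum in Trf (398 to 1345 CPM) and Alb (33.6 to 311 CPM), while Foxa2 was not called (adjusted p = 0.786) and Fgb went from 18 to 4 reads. Of the fibroblast markers 5 of 6 tested were called higher, Col1a1 by 0.57 on the log2 scale (adjusted p = 9.83e-12). Without ferroptotic replicate 3, 4 of the 6 were called higher. Col1a2 then went from a log2 change of 3.37 to 0.72 and was not called (adjusted p = 0.0639). The part of either list in the Fgf1 result was not tested.

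In MEFs the receptors Fgfr2 and Fgfr3 and the ligand Fgf1 rose with ferroptotic medium, and the 3 abundant ligands Fgf2, Fgf7 and Fgf10 fell. Of 8 members tested, 6 were called, where 55.0% of 14441 genes were called (27.8% higher, 27.2% lower). Fgfr2 went from 199.7 ± 4.19 to 285 ± 3.38 CPM, which is 0.45 on the log2 scale (SE 0.0282, adjusted p = 1.17e-19). Fgfr3 went from 3.45 ± 0.491 to 6.62 ± 0.556 CPM, which is 0.86 on the log2 scale (SE 0.125, adjusted p = 5.28e-08). Every ferroptotic library was above every control library for both receptors. Fgf1 had a log2 change of 2.20 (SE 0.452, adjusted p = 4.25e-05), but its 9 control reads mean that it passed the filter through the ferroptotic libraries alone and had to differ. Its ratio of reads was 4.96 (95% interval 2.40 to 11.5, counting error only).

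Fgf2 fell from 73.3 ± 1.41 CPM to 51.1 ± 1.24 CPM, a log2 value of -0.59 (SE 0.0392, adjusted p = 9.28e-19). Fgf10 fell from 31.7 ± 1.25 CPM to 26.0 ± 0.0518 CPM, a log2 value of -0.35 (SE 0.0530, adjusted p = 1.12e-07). Fgf7 fell from 321 ± 0.962 CPM to 294 ± 8.83 CPM, a log2 value of -0.20 (SE 0.0287, adjusted p = 5.47e-08). For these 3 ligands every ferroptotic library was below every control library in CPM, and groups did not overlap for 60.7% of all genes tested. Fgf21 was not called, with a log2 change of -0.17 and an interval of -0.78 to 0.45 (adjusted p = 0.676), which spans changes of either sign. Fgfr1 was not called either (log2 change 0.05, SE 0.0276, adjusted p = 0.100). Without scaling beyond total counts its change was 0.12 and was called (adjusted p = 0.000128). The scaling bears on all genes here: 50.5% of the calls in MEFs were higher with it and 63.8% without it. Adipocyte markers rose beside the receptors, from a summed 74.7 to 79.4 CPM in control to 141 to 150 CPM in ferroptotic medium, with 3 of 3 tested called higher and Klb, a gene of mature adipocytes, at 0. Their part in the receptor result was not tested.

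**Figure D3:**
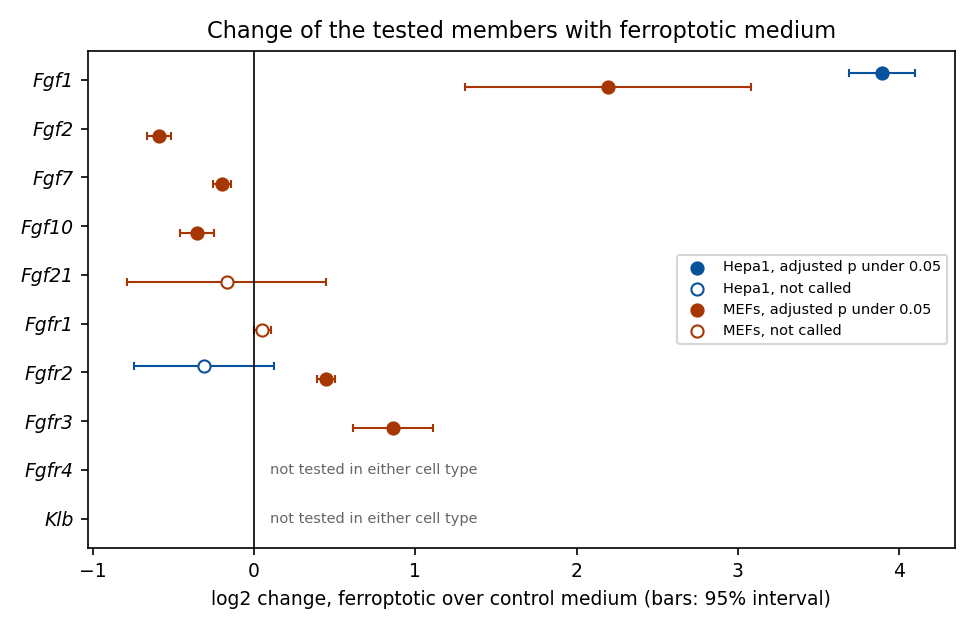
The log2 change between ferroptotic and control medium for the members that passed the filter, with bars for the 95% interval (3 libraries against 3). Filled points were called and open points were not, and Fgfr4 and Klb were too low to test. Of the filled points in MEFs, 3 ligands lie below 0 and 2 receptors and Fgf1 above it. The open points in MEFs are Fgf21 at -0.17 and Fgfr1 at 0.05. Fgf1 in Hepa1 lies farthest from 0.

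Between the cell types, the tested members other than Fgf1 were higher in MEFs in both media. In control medium the log2 difference of MEFs over Hepa1 was 7.15 for Fgfr2 (SE 0.0712, adjusted p = 1.08e-50) and -3.55 for Fgf1 (SE 0.357, adjusted p = 2.08e-12), and in ferroptotic medium 7.90 (adjusted p = 3.04e-52) and -5.24 (adjusted p = 2.62e-34). All 8 tested members were called in each medium, but 6 of them passed the filter through MEFs alone and had to differ. The share called among 15627 genes was 86.6% in control medium (46.0% higher in MEFs, 40.7% lower) and 88.2% in ferroptotic medium (46.7% higher, 41.5% lower), so a call is the usual outcome here. Groups did not overlap for 89.9% and 91.1% of them. Calls over all genes were 53.0% and 52.9% higher in MEFs, and 35.5% and 36.1% without scaling, which moved the median of all genes from 0.08 to -0.49 and from 0.08 to -0.46 on the log2 scale. The directions of these members did not turn under any scaling tried.

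For the members near 0 in Hepa1, ratios of reads show how far the counts reach. Fgfr1 was 24844-fold higher in MEFs in control medium with an interval of 4459 to 981309, since it rests on 1 Hepa1 read. In ferroptotic medium the ratio was 2237 with all libraries and 8763 without Hepa1 replicate 3. Fgf7 likewise went from 1914 to 11246 and Fgf2 from 273 to 653 on leaving that library out. Fgfr3 was 25.6-fold higher in MEFs in control and 43.1-fold in ferroptotic medium. Fgf21 was 48.2-fold higher in control (8.29 to 1941) and 14.9-fold in ferroptotic medium (4.82 to 74.7), and these intervals overlap.

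**Figure D4:**
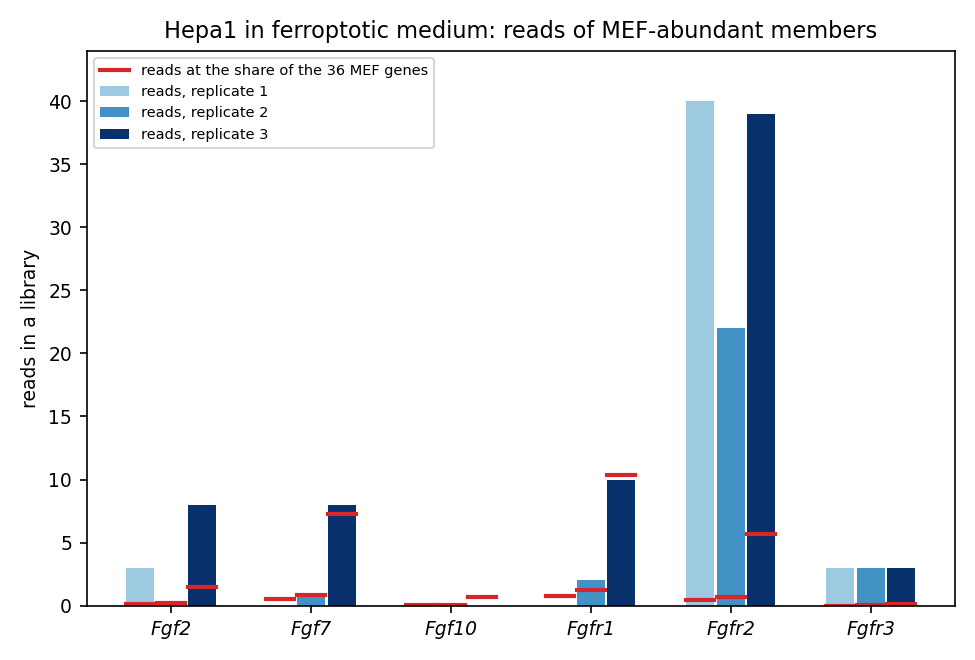
Reads of 6 members in the 3 Hepa1 libraries in ferroptotic medium (bars), with red lines at the reads met if each library held the share of the MEF level found over 36 other MEF-abundant genes. In replicate 3 the line and the bar lie close for Fgfr1 (10.3 and 10) and Fgf7 (7.23 and 8). The Fgfr2 bar of 39 stands above its line at 5.70, and the Fgf2 bar of 8 above its line at 1.46.

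The response to the medium was compared between the cell types over all 12 libraries. Of 8 members in that fit 3 were called, where 44.2% of all genes were, but 6 of the 8 were too low in Hepa1 for a response to be tested there and entered through MEFs alone, so nothing is read from the count. Fgf10, with 0 reads in Hepa1, has no response there. Fgf1 and Fgfr2 could be tested in both cells, and of these only Fgfr2 had more than 3 reads in every library. The log2 change of Fgfr2 in MEFs minus that in Hepa1 was 0.75 (SE 0.198, adjusted p = 0.00166, edgeR). Fgfr2 rose in MEFs and was not called in Hepa1. The value was -1.69 for Fgf1 (SE 0.647, adjusted p = 0.0298), which was called higher in both and rests on 9 reads in MEF control medium. This call was lost without MEF control replicate 1 (adjusted p = 0.0837), MEF control replicate 2 (0.172) or MEF ferroptotic replicate 2 (0.053). For Fgfr1, with 1 and 12 reads in the Hepa1 groups, it was -3.04 (SE 1.04, adjusted p = 0.0148), and without Hepa1 ferroptotic replicate 3 it was -1.20 (adjusted p = 0.526). The Fgfr1 call was also lost without Hepa1 control replicate 1 (adjusted p = 0.0606) or 3 (0.0562). Fgf7 missed the threshold (-2.13, adjusted p = 0.0726), was called without Hepa1 ferroptotic replicate 1 (-2.70, adjusted p = 0.0121) or 2 (-2.49, adjusted p = 0.0355), and was at 0.14 without replicate 3 (adjusted p = 0.993).

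The rest of the pathway was followed with lists of named genes, given as counts beside the shares of all genes. These shares were 58.1% called in Hepa1 and 55.0% in MEFs. Of 13 other FGF ligands none passed the filter in Hepa1, and 2 did in MEFs, where both were called lower: Fgf18, a ligand of cartilage and bone, from 26.7 ± 1.40 to 23.1 ± 1.28 CPM (log2 change -0.27, adjusted p = 6.98e-05), and Fgf5, a regulator of hair growth, with a log2 change of -1.56 (adjusted p = 0.000526). Fgf5 had 47 reads in MEF control and 17 in MEF ferroptotic medium and passed the filter through the control libraries alone, so it had to differ. Of 4 intracellular FGF homologous factors, Fgf11 rose in Hepa1 (0.47, adjusted p = 0.000889). In MEFs the 2 tested, named after their values were seen, were not called, Fgf11 with a log2 change of -0.0043 and Fgf14 with -0.43 (adjusted p = 0.98 and 0.203).

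Among 8 other receptor and co-receptor genes, N-cadherin moved in opposite directions. Cdh2, an adhesion protein that binds FGFR1, fell in Hepa1 from 72.7 ± 1.39 to 51.7 ± 0.965 CPM (log2 change -0.54, adjusted p = 3.58e-11) and rose in MEFs from 69.8 ± 1.95 to 160.9 ± 2.45 CPM (1.14, adjusted p = 2.65e-34). The difference of its responses was 1.67 (adjusted p = 9.43e-28). In MEFs 2 of 6 tested rose and 2 fell, where 27.8% of all genes were called higher and 27.2% lower. The median there was -0.08 against 0.0033 over all genes. Flrt2, a membrane partner of FGF receptors, rose with a log2 change of 1.10 (adjusted p = 9.99e-33), while Flrt1 and Flrt3 fell by 0.60 and 0.24. In Hepa1 1 of 3 tested rose and 2 fell, where 29.3% of all genes were called higher and 28.8% lower. The median there was -0.31 against 0.0045 over all genes, and Fgfrl1, a receptor without a kinase, fell by 0.31 (adjusted p = 2.39e-06). The rise of Flrt3 in Hepa1 (0.52, adjusted p = 0.0186) was not called without ferroptotic replicate 3 (adjusted p = 0.0745), nor without ferroptotic replicate 1 or control replicate 1 or 3. Its fall in MEFs was not called without control replicate 2 or ferroptotic replicate 3.

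Heparan sulfate genes changed in both cells, as did most genes tested (58.1% called in Hepa1 and 55.0% in MEFs). Of 21 listed carriers and heparan sulfate genes, 8 of 17 tested rose and 6 fell in Hepa1 (median 0.17). Of all genes there, 29.3% were called higher and 28.8% lower. In MEFs 11 of 20 rose and 6 fell (median 0.10), where 27.8% of all genes were called higher and 27.2% lower. Sulf1 and Sulf2 encode sulfatases that trim heparan sulfate outside the cell. Sulf1 rose in Hepa1 from 4.43 ± 0.315 to 13.99 ± 0.549 CPM (log2 change 1.61, adjusted p = 8.32e-14) and fell in MEFs from 1744 ± 42.8 to 553 ± 10.7 CPM (-1.73, adjusted p = 2.8e-45). The difference of its responses was -3.34 (adjusted p = 4.32e-29). Sulf2 rose in MEFs from 68.2 ± 0.397 to 245 ± 3.22 CPM (1.78, adjusted p = 9.6e-44). The heparan sulfate proteoglycans Gpc3 in Hepa1 (1.05, adjusted p = 7.11e-19) and Gpc6 in MEFs (0.88, adjusted p = 2.74e-26) also rose, and Sdc4 fell in MEFs by 0.73 (adjusted p = 2.34e-28). In Hepa1, Hs3st1, a heparan sulfate sulfotransferase, fell by 0.94 and Fgfbp1, a carrier that releases FGFs from the matrix, by 0.78. Fap, chosen after its values were seen, encodes a protease that cleaves human FGF21. It had 0 reads in Hepa1 and rose in MEFs from 3.14 ± 0.345 to 8.39 ± 0.556 CPM (1.34, adjusted p = 3.39e-14).

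Genes that carry the signal inside the cell changed by little in either direction. Of 19 tested, 5 rose and 9 fell in Hepa1 (median -0.11), and 4 rose and 12 fell in MEFs (median -0.10), with sizes below 0.5 on the log2 scale. Over all genes, 29.3% were called higher and 28.8% lower in Hepa1, and 27.8% and 27.2% in MEFs. The adaptor Shc1 rose in Hepa1 (0.33, adjusted p = 4.79e-09) and in MEFs (0.28, adjusted p = 2.62e-12). Plcg1, the phospholipase bound by active receptors, rose in MEFs (0.25, adjusted p = 1.87e-09). Map2k1, a kinase of the MAP kinase cascade, fell in Hepa1 by 0.42, and Braf and Gab1 fell in MEFs by 0.39 and 0.29. Without Hepa1 ferroptotic replicate 3, 5 rose and 8 fell in Hepa1. Without scaling beyond total counts, 7 rose and 7 fell in Hepa1, and 5 rose and 8 fell in MEFs.

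The genes that FGF signalling is known to switch on moved in both directions, and its part in these changes was not tested. In control medium 6 of the 18 listed were called higher in MEFs than in Hepa1 and 9 lower, where 46.0% and 40.7% of all genes were. With ferroptotic medium, 29.3% of all genes were called higher and 28.8% lower in Hepa1, and 27.8% and 27.2% in MEFs. Of 16 tested in Hepa1, 4 rose and 8 fell (median -0.25), and 3 rose and 8 fell without ferroptotic replicate 3. Of 17 tested in MEFs, 5 rose and 4 fell (median 0.07), and 9 rose and 3 fell without scaling beyond total counts. Egr1, an immediate early gene, fell in Hepa1 from 192 ± 16.8 to 85.3 ± 5.66 CPM (log2 change -1.22, adjusted p = 1.19e-17) and rose in MEFs from 134 ± 2.13 to 239 ± 9.45 CPM (0.76, adjusted p = 1.46e-27). Dusp4, a phosphatase of MAP kinases, fell in Hepa1 from 872 ± 67.5 to 369 ± 16.9 CPM (-1.29, adjusted p = 7.86e-20). Ccnd1, which encodes cyclin D1, rose in Hepa1 (1.24, adjusted p = 4.4e-19) and in MEFs (0.68, adjusted p = 3.93e-26). Spred1, a brake on MAP kinase signalling, rose in Hepa1 (0.47, adjusted p = 2.22e-12). In MEFs Myc and Fos fell by 1.20 and 0.57 (adjusted p = 3.74e-23 and 3.38e-09).

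Among regulators of Fgf21 transcription, Ppargc1a and Ddit3 rose in MEFs. Of 7 tested in Hepa1, 1 rose and 3 fell (median -0.06), where 29.3% of all genes were called higher and 28.8% lower. Of 9 in MEFs, 4 rose and 2 fell (median 0.04), where 27.8% of all genes were called higher and 27.2% lower. With so few genes nothing is read from these counts. Ppargc1a, a coactivator of mitochondrial genes, rose in MEFs from 1.09 ± 0.243 to 8.85 ± 0.509 CPM (log2 change 2.94, adjusted p = 3.13e-23). Its rise in Hepa1 was small (0.36, adjusted p = 0.03) and was not called without control replicate 3 (adjusted p = 0.131) or ferroptotic replicate 2 (0.162). Ddit3, which encodes the stress factor CHOP, rose in MEFs from 28.9 ± 0.853 to 55.5 ± 0.639 CPM (0.87, adjusted p = 8.71e-23) and fell in Hepa1 (-0.40, adjusted p = 8.76e-10). Nr4a1, a nuclear receptor induced by many signals, fell by 1.56 in Hepa1 and 1.37 in MEFs. Bach1 fell in Hepa1 by 0.28 (adjusted p = 8.77e-07). In MEFs it fell by 0.11 (adjusted p = 0.0126), which was not called without control replicate 1 or ferroptotic replicate 3 (adjusted p = 0.121 in each). Atf4 was not called in either cell, with log2 changes of -0.04 (adjusted p = 0.264) and -0.06 (adjusted p = 0.142), the latter called without MEF control replicate 1 (-0.11, adjusted p = 0.00151).

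Genes with the pattern most like a member's were found by the root mean square difference of centred log2(CPM + 0.5) values over the 12 libraries, for the 7 members with a group mean of 5 CPM or more, and are a description. For Fgfr1 these were Slit2 (0.0583) and Rcn1 (0.122), for Fgfr2 Pax1 (0.204) and Ebf3 (0.206), and for Fgfr3 Col4a2 (0.149) and P2rx6 (0.161). For Fgf7 they were Plod2 (0.0899) and Rspo2 (0.106), for Fgf10 Lrfn3 (0.0711) and Lingo1 (0.0736), and for Fgf2 Ak5 (0.198) and Tmem45a (0.219). Fgf1 had no such close match, with Troap (0.438) and Ube2c (0.460) nearest. Troap went from 4.01 to 27.2 CPM in Hepa1, against 2.48 to 38.0 for Fgf1. The added 0.5 shrinks differences at low CPM, so a small value does not mean equal folds between the cell types. In control medium Col4a2 was at 165 CPM in Hepa1 and 1016 in MEFs, against 0.136 and 3.45 for Fgfr3. Pax1 was at 0 CPM in Hepa1 control medium, against 2.06 for Fgfr2.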

How the data were processed

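RNA-seq counts of 12 libraries were used. The authors deposited raw read counts by Ensembl gene, in 1 table and 1 file per sample, with 0 values differing between them. The submitters' processing notes name STAR 2.7.10a, HTSeq 0.9.1, Trimmomatic 0.39, FastQC 0.11.9 and the build GRCm38 (mm10), without their settings. The sources used here do not give the annotation release or the strand setting, and reads of genes that overlap on opposite strands were not told apart. Per the labels' protocols, 100 ng of total RNA went into each library. The 5 HTSeq summary lines were set apart: they held 2.00 to 2.58% of reads without a gene and 3.66 to 4.03% ambiguous reads. GENCODE M21 gave symbols and coordinates for 55227 of 55487 identifiers, and promoters from RefSeq GRCm38.p6.

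Groups came from the sample titles. Each medium response was fitted on the 6 libraries of its cell type, and the cell comparisons and the difference of responses on all 12, with edgeR 4.0.16 (quasi-likelihood F-test, filterByExpr, TMM scaling; R 4.3.3). A call is a Benjamini-Hochberg adjusted p under 0.05 over all genes tested. Standard errors were derived from the F statistic. CPM are plain, on total counts over genes. Ratios of summed reads carry exact conditional binomial 95% intervals, and these and the floor of 3 counts cover counting error only. Alternatives were DESeq2 1.42.0 (size factors and Wald test), limma 3.58.1 voom, no scaling, other filters, other samples in the fit, a replicate block and leaving out each library. The fits were also run on simulated data with the same dispersion for every gene. That setting does not show how they behave when spread differs between genes. The members and lists were chosen with earlier results of these data known. All members were named, as were up to 2 called genes per direction, list and cell type with the smallest adjusted p, and the 2 nearest patterns per member, apart from some genes that are not reported here. Marker genes of the fixed cell type lists are named beside the results they moved with. Bach1 in Hepa1 and the genes said to be named after their values were seen lie outside this rule.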

Additional observations from a re-analysis of the deposited data

Results flagged for a closer look

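The difference between the MEF and the Hepa1 change with ferroptotic medium passed the threshold for 3 of 8 members tested, in edgeR over all 12 libraries. Over all genes 44.2% passed it, so nothing is read from the count. For Fgfr2 alone of the 3 were the reads sufficient in all 4 groups. The log2 change in MEFs minus that in Hepa1 was 0.75 for Fgfr2. Its 3 MEF libraries of each medium lay apart, as for 60.7% of all genes tested in MEFs, and its Hepa1 groups overlapped. The value was -1.69 for Fgf1, which had 9 reads in MEF control medium and passed the filter in MEFs through the ferroptotic libraries alone. This call was lost without MEF control replicate 1 (adjusted p = 0.0837, edgeR), MEF control replicate 2 (0.172) or MEF ferroptotic replicate 2 (0.053). It was -3.04 for Fgfr1, which was too low in Hepa1 for a response to be tested there. Of its reads, 10 of the 12 reads in Hepa1 ferroptotic medium came from replicate 3, and the value was -1.20 without that library (adjusted p = 0.526, edgeR).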

How the results depend on the processing

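In Hepa1 8 of 10 members did not pass the filter on low counts. The members called in Hepa1 numbered 1, and 2 with no filter or with all 12 libraries in 1 fit (Fgfr1 added). A fit of all 12 without Hepa1 ferroptotic replicate 3, chosen after seeing the data, also gave 2, with Fgf2 added (log2 change -1.84, adjusted p = 0.0435, edgeR) and Fgfr1 not called. The cause was not tested. Of 515 member values under alternatives, 499 kept their direction and side of the threshold, 3 passed it and 7 missed it. The other 6 turned their direction, none of them called in either fit. Fgf21 in MEFs was at 0.23 without control replicate 3 and 0.04 without ferroptotic replicate 1, in a range of -0.51 to 0.23 over left-out libraries. The Fgf2 difference of responses was at -0.45 without Hepa1 control replicate 3, and -0.08 and -0.49 without Hepa1 ferroptotic replicates 1 and 2, in a range of -0.49 to 1.25. That of Fgf7 was at 0.14 without Hepa1 ferroptotic replicate 3, in a range of -2.70 to 0.14. The causes were not tested. The 7 were the Fgf1 and Fgfr1 differences of responses under left-out libraries and Fgfr1 with limma-voom (-1.63, adjusted p = 0.0985). With no filter Fgfr4 was called higher in MEFs (4.26 and 3.08 in the 2 media).

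With each library left out, genes called ran from 6980 to 7634 in Hepa1, 7369 to 7629 in MEFs, 13388 to 13564 and 13657 to 13777 between cells in control and ferroptotic medium, and 6479 to 6748 for the difference of responses. Members called stayed at 1, 6, 8 and 8, and ran from 2 to 4 for the difference. The log2 difference between cells in control medium moved from 5.66 to 7.40 for Fgf21 without Hepa1 control replicate 1 and from 14.66 to 16.40 for Fgfr1 without replicate 2. In ferroptotic medium Fgf21 moved from 4.25 to 5.06 without Hepa1 replicate 1.

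With the replicate number as a block, 7437 genes were called in Hepa1, 8073 in MEFs, 12725 and 12954 between cells and 6867 for the difference of responses, with 1, 6, 8, 8 and 3 members. Same-numbered libraries correlated at -0.0250 to 0.0524 in their deviations from group means, and the closest match shared the number for 1 control and 2 ferroptotic libraries of 6, so the numbers were not taken as pairs.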
